A study of Mus musculus with 2 samples.

Results

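Mir126a and Mir126b are microRNA (miRNA) genes annotated on opposite strands of the Egfl7 locus on mouse chromosome 2. These 2 genes, of the 2202 miRNA genes in the tables, were chosen by name and position, with earlier results of these data known. They were followed in microRNA sequencing of the adrenal gland from female B6CASTF1/J mice, a first-generation hybrid of C57BL/6J and CAST/EiJ, at 2 months of age. The labels give a single group with 2 biological replicates and no treatment, and number them as different females, although both carry the same donor label. No comparison between conditions was therefore possible. If the samples are not separate animals, the standard deviations (SD, n = 2) measure only the spread between these samples.

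MicroRNAs are short RNAs cut from a hairpin precursor. They pair through their seed, bases 2 to 8, with messenger RNAs and lower their output. miR-126 is known as an abundant miRNA of endothelial cells, the lining of blood vessels, and is also found in platelets and blood progenitor cells. Its host gene Egfl7 encodes a factor secreted by endothelial cells, and miR-126 is known to restrain the signalling inhibitors Spred1 and Pik3r2, which favours the response to the vascular growth factor VEGF. The adrenal gland is densely supplied with capillaries.

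The gene counts on the gene's own strand, called sense counts here, came to 2839732 (replicate 1) and 2280028 (replicate 2). Levels are given as counts scaled to 1000000 of this total (CPM), so that 1 count equalled 0.352 CPM in the first library and 0.439 CPM in the other. Counts are per hairpin, so the arms of a hairpin are summed. Intervals are exact 95% intervals and cover counting error only.

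The sequences of both members are shown because their overlap decides how their reads were counted. They are from RefSeq (GRCm38.p6, the assembly called mm10 elsewhere), are written 5′ to 3′, and in the hairpins the capitals mark the mature miRNAs that the RefSeq table lists.
Mir126a hairpin: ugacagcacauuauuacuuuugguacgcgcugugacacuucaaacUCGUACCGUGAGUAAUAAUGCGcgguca
Mir126b hairpin: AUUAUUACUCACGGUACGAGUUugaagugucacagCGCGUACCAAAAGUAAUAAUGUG
In the mature miRNAs the capitals mark the seed.
mmu-miR-126a-3p: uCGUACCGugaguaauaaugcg
mmu-miR-126b-3p: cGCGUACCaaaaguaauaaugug
mmu-miR-126b-5p: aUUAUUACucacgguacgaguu

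Mir126a (ENSMUSG00000065540.1) occupies chr2:26591357-26591429 on the plus strand, 73 bases. Mir126b (ENSMUSG00000105799.1) occupies chr2:26591363-26591420 on the minus strand, 58 bases, and is the exact reverse complement of bases 7 to 64 of the Mir126a hairpin. Only 6 bases before and 9 bases after this stretch belong to Mir126a alone. miR-126a-3p lies at bases 46 to 67 of its hairpin, and 19 of its 22 bases lie opposite miR-126b-5p.

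**Figure D1:**
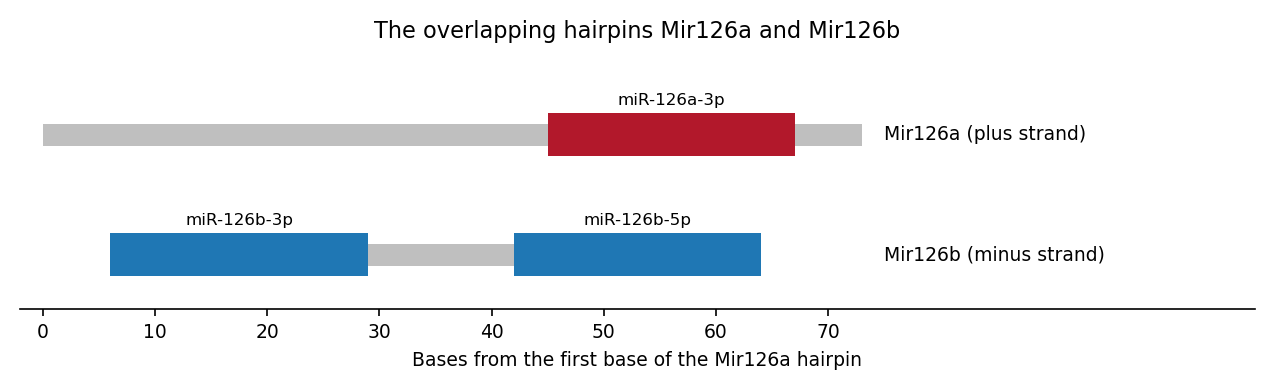
Map of the hairpins (grey) and of the mature miRNAs that RefSeq lists (coloured) by distance in bases from the first base of Mir126a, with the plus strand above and the minus strand below. The 58-base Mir126b hairpin lies wholly within the 73-base Mir126a hairpin, and miR-126b-5p lies opposite most of miR-126a-3p.

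In GENCODE M21 both hairpins lie within Egfl7 (ENSMUSG00000026921.18, chr2:26580014-26593120, plus strand), so Mir126a is on the strand of its host and Mir126b is antisense to it. Of the 9 Egfl7 transcripts that span the hairpin, 8 place it in an intron, and Egfl7-206, a transcript with a retained intron, holds it in an exon. In 6 of the 8 the intron is 600 bases long and the next exon starts 235 bases after the hairpin. The gene Gm20532, on the plus strand as well, also spans it, within an intron. Egfl7-211 and Egfl7-208, shorter Egfl7 transcripts, start 5 and 6 bases after the end of the hairpin.

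Because a hairpin pairs with itself, each strand of this locus resembles the other. miR-126a-3p matched miR-126b-3p at 17 of 22 aligned bases without gaps, with an identical run of 10 bases, and their seeds share a run of 6 letters shifted by 1 position. miR-126b-5p matched bases 10 to 31 of the Mir126a hairpin at 17 of 22 positions. For Mir126a the RefSeq table lists miR-126a-3p alone, so no mature miRNA of this other arm was marked or had its seed searched. That does not show that the arm yields none, and reads from it would count for Mir126a. A minimum free energy of -31.2 kcal/mol was predicted for Mir126a and of -19.3 kcal/mol for the shorter Mir126b.

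No other mature miRNA among the 1737 in the RefSeq table shares the seed of miR-126a-3p, miR-126b-3p or miR-126b-5p. No stretch of 20 bases of either hairpin occurred in the 1003 other hairpins of that table on either strand. Among 141767 GENCODE transcripts, miR-126a-3p was found in Mir126a itself and in Egfl7-206. In the annotated hairpins and transcripts searched, these miRNAs therefore had no second locus, although the genome itself was not searched.

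Mir126a was among the most abundant miRNA genes of the adrenal gland in both libraries. It had 122684 sense counts in replicate 1 and 135577 in replicate 2, or 43203 CPM (interval 42961 to 43445) and 59463 CPM (59147 to 59780). Its share of all gene counts was 4.32% and 5.95%, and its place among all genes 6 and 3, respectively. By mean CPM it ranked 4, at 51333 ± 11498 CPM. Reads aligned to several places, 28.8% and 25.3% of all reads in replicates 1 and 2, were not counted. Shares and ranks here and below therefore hold for assigned reads only. Genes that share their mature miRNA with another gene can be ranked too low. In bulk tissue a larger number of cells and more RNA per cell cannot be told apart.

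In contrast, Mir126b was close to the limit of detection. Replicate 1 had 14 sense counts of it (interval 7.65 to 23.5) and replicate 2 had 5 (1.62 to 11.7), or 4.93 and 2.19 CPM, with a mean of 3.56 ± 1.94 CPM. For a count of 0 a floor of 3 counts was set, or 1.06 and 1.32 CPM, which is a fixed limit and not 1 of the exact intervals. It ranked 378 by mean CPM, and with a mean of 9.5 counts it fell below the minimum mean of 10 for the comparison of the libraries.

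Thus Mir126a exceeded Mir126b 8763-fold (interval 5223 to 16029) in the first library and 27115-fold (11619 to 83511) in the second. Of the sense counts of the pair, Mir126b made up 0.0114% (0.00624 to 0.0191) and 0.00369% (0.001197 to 0.00861), in the same order. A two-sided Fisher's exact test of this share between the libraries, run after the values had been seen, gave p = 0.0358. The test rests on 14 against 5 counts and says nothing beyond these libraries.

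Levels close to that of Mir126a could not all be ordered. Mirlet7b and Mirlet7g, of the let-7 family of differentiation regulators, were higher than Mir126a in both libraries and by more than the SDs. Mir378a, from the metabolic coactivator gene Ppargc1b, reached 48825 and 56680 CPM. It was above Mir126a in replicate 1 and below it in replicate 2, and their means differed by 1420 CPM, less than either SD. Mirlet7i was at 41368 and 41663 CPM, below Mir126a in both libraries, but the means differed by less than the SD of Mir126a. Mir139 changed places with Mir126a between the libraries, with 43281 CPM against 36758 CPM. Mir375, known from neuroendocrine cells, was the nearest gene that lay below Mir126a in both libraries and by more than the SDs, at 39421 and 37780 CPM.

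**Figure D2:**
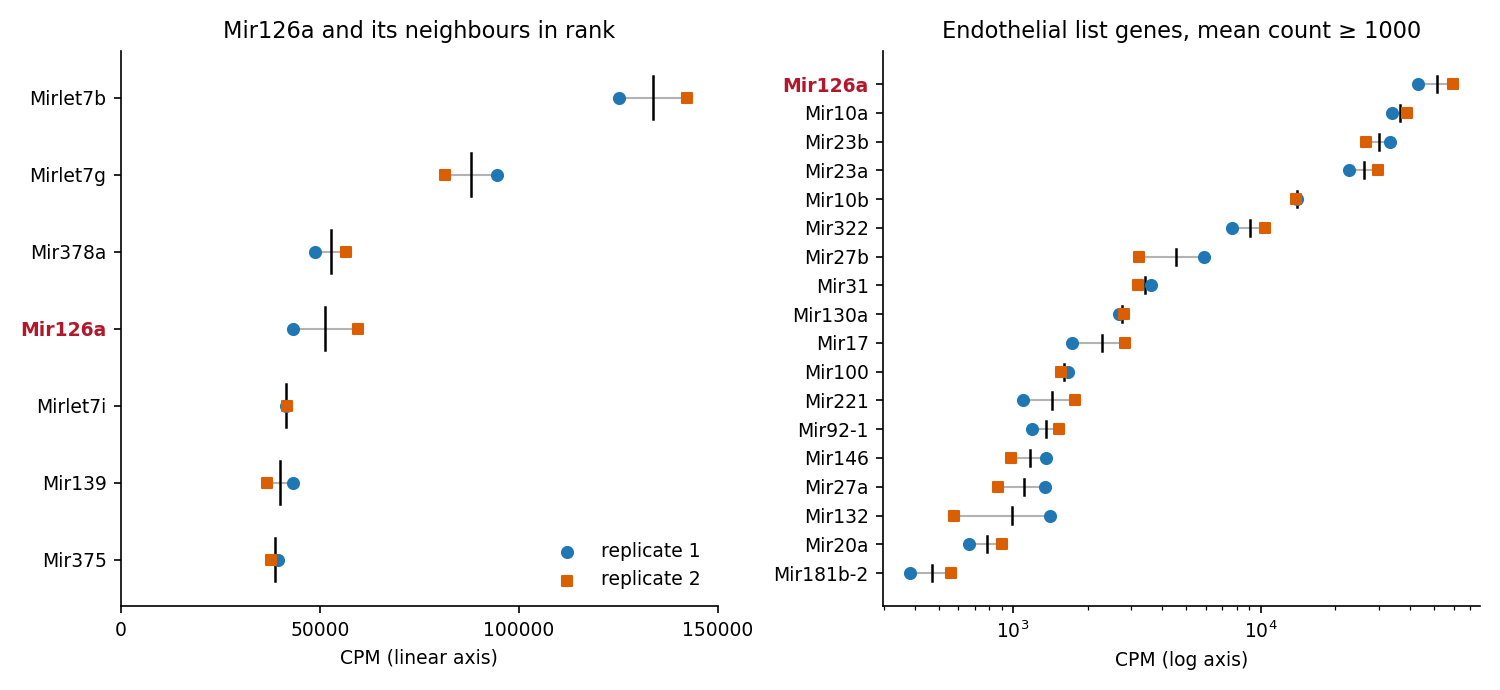
CPM in each library (circles, replicate 1; squares, replicate 2) with the mean as a vertical bar, on a linear axis for the 3 genes ranked above and the 3 ranked below Mir126a (left) and on a log axis for the endothelial list genes averaging 1000 or more counts (right). The range of Mir126a, 43203 to 59463 CPM, spans that of Mir378a, while it lies above every other gene of the endothelial list in both libraries.

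A list of 32 miRNA genes described in endothelial cells, most of which other cells express too, was used to place the members among vascular miRNAs. The list held 17.9% of the gene counts in replicate 1 and 20.1% in replicate 2. Mir126a alone made up 24.1% of the list (interval 23.99 to 24.2) in the first library and 29.5% (29.4 to 29.7) in the second, whereas Mir126b was among its lowest members. Without the miR-23/27/24, miR-17-92 and miR-10 clusters, the share of Mir126a was 69.6%, so the share depends on which broadly expressed genes are listed.

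Within the list, Mir10a, from the Hoxb cluster, came closest, and Mir126a exceeded it 1.28-fold in replicate 1 and 1.53-fold in replicate 2. Mir23b, of a cluster with a known role in vessel growth, was at 33164 and 26618 CPM, and Mir126a exceeded it 1.30-fold and 2.23-fold. Mir23a, its paralog, was at 22688 and 29588 CPM. Mir10b was at 14056 and 13906 CPM, 3.07-fold and 4.28-fold below Mir126a. All 4 were lower than Mir126a in both libraries.

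The remaining 13 list genes averaging 1000 or more counts lay far lower. They ranged from Mir322, of a growth-regulating cluster, at 9050 ± 1932 CPM, to Mir181b-2 at 472 ± 124 CPM. Mir221, a regulator of endothelial migration, reached 1439 ± 481 CPM, Mir17 of the miR-17-92 cluster 2282 ± 780 CPM and Mir31 3399 ± 291 CPM. Mir155 and Mir210, induced by inflammation and by low oxygen, respectively, were at 341 ± 17.4 and 222 ± 61.4 CPM. Several of these genes, among them Mir181b-2, share their mature miRNA with another gene, and reads aligned to several places were not counted. Their levels hold for assigned reads only.

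The single-strand counts gave opposite results for the members, and the unstranded counts lost both of them. Without regard to strand Mir126a had 5 counts in replicate 1 and 8 in replicate 2, and Mir126b had 0 in both. Mir126a thus kept 0.00408% (interval 0.00132 to 0.00951) and 0.00590% (0.00255 to 0.0116) of its sense counts. Of 369 genes averaging 10 or more counts, 27 (7.32%) kept no more than 1% in both libraries, as did 9 of 123 (7.32%) that averaged 1000 or more.

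The opposite-strand counts show the same reads again, since a read on the strand of 1 member lies on the opposite strand of the other. Their match with the loss therefore follows from the counting and is no separate result. The opposite-strand count of Mir126b was 122679 in replicate 1 and 135569 in replicate 2, which is 5 and 8 fewer than the sense count of Mir126a. The differences equal the unstranded counts of Mir126a. In return, the opposite-strand count of Mir126a, 14 and 5, equals the sense count of Mir126b. Without regard to strand, the reads that overlap both hairpins fall in the row for ambiguous reads, which held 347555 reads in replicate 1 and 354974 in replicate 2. The reads of this locus numbered 122693 and 135574, or 35.3% and 38.2% of that row.

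Overlap with a miRNA gene on the other strand separated the genes that lost their counts from those that did not. Such a partner is annotated for 64 of the genes. Of the 29 averaging 10 or more counts, 27 kept no more than 1% in both libraries, and the highest mean share kept was 5.88%. Each of the 340 genes without a partner kept all of its sense counts. Mir126a and Mir126b were therefore among many genes affected in this way.

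The 64 genes form 32 pairs, of which 9 averaged 1000 or more sense counts between them. Mir126a with Mir126b was the second most abundant, after Mir378a with Gm25301. In 7 of the 9 pairs the partner covers the whole of the higher gene, and none of these 7 higher genes had an unstranded count in either library. The exceptions were Mir126a, of which Mir126b covers 58 of 73 bases, and Mir337 of the Dlk1-Dio3 region, of which Mir3544 covers 61 of 97 bases. Mir337 kept 14 and 27 unstranded counts of 3068 and 3738 sense counts.

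Among the pairs averaging 1000 or more sense counts, the same 2 were the ones with any sense count on the lower strand. Mir3544 had 85 and 27 sense counts, 2.70% and 0.717% of its pair. Mir126b, with 0.0114% and 0.00369%, thus held a smaller share of its pair than Mir3544 in both libraries. The partners of Mir378a, Mirlet7e, Mir191, Mir451a, Mir30e, Mir409 and Mir497 had no sense count in either library. Below the limit of 1000, Mir3065 had 25 and 29 sense counts, 1.90% and 7.40% of its pair. Mir3107 had 17 and 7, or 8.33% and 5.00%. Mir299b and Mir3074-1 also had some in both libraries, and no other partner below the limit did. All of these named partners below the limit held a larger share of their pair than Mir126b in both libraries.

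**Figure D3:**
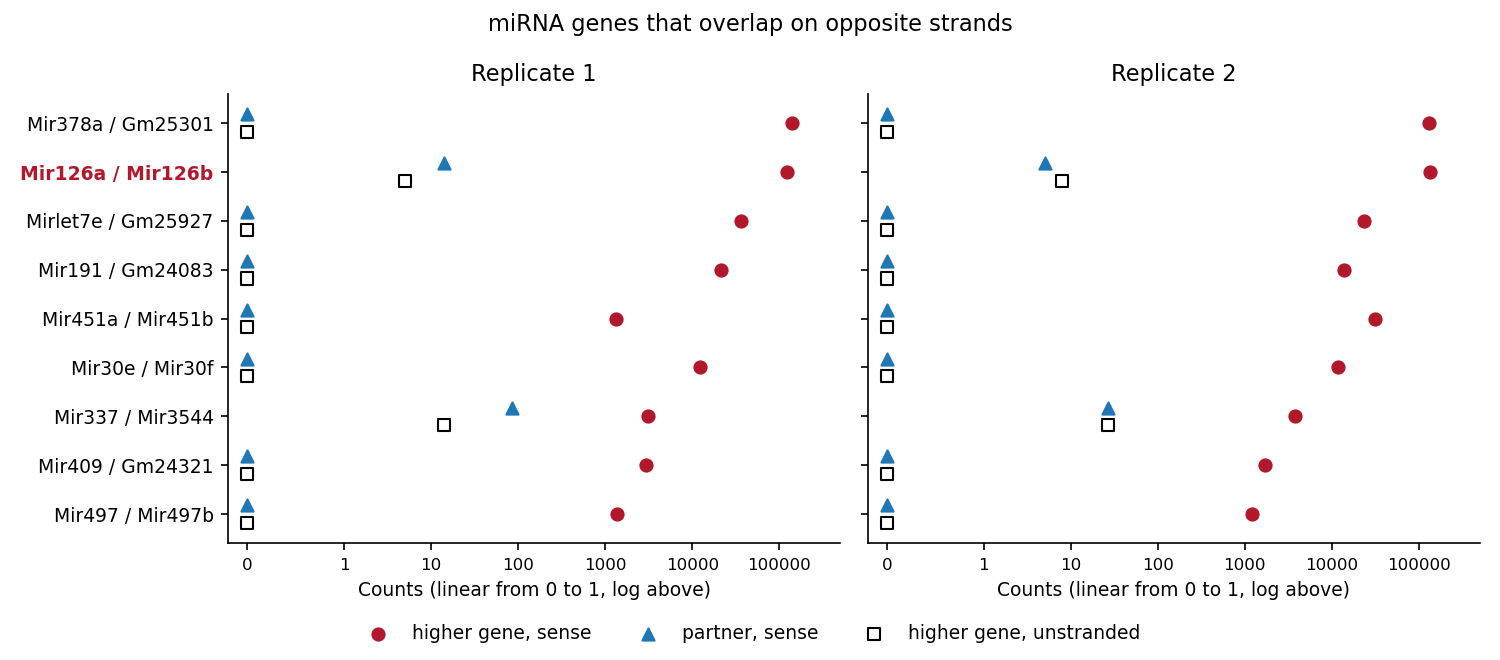
Counts in each library for the 9 opposite-strand pairs that averaged 1000 or more sense counts, on an axis that is linear from 0 to 1 and logarithmic above. Filled circles are the sense counts of the higher gene, triangles those of its partner and open squares the unstranded counts of the higher gene. For Mir126a the sense counts exceed 100000 in both libraries, while the unstranded counts (5 and 8) and Mir126b (14 and 5) stay below 20.

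The few counts of Mir126b were set against the opposite-strand counts of genes for which no miRNA partner is annotated, and the outcome depended on the genes taken. Per 100000 counts of Mir126a, Mir126b had 11.4 (interval 6.24 to 19.1) in the first library and 3.69 (1.197 to 8.61) in the second. The 34 genes that averaged 10000 or more sense counts, a limit chosen after the values had been seen, had 0.559 (0.289 to 0.976) and 0.246 (0.0670 to 0.630) opposite-strand counts per 100000 sense counts. Against these most abundant genes Mir126b was higher in both libraries, and the intervals did not overlap. Mirlet7b alone gave 11 of their 12 opposite-strand counts in replicate 1 and all 4 in replicate 2. Of the 34 genes, 32 had none in replicate 1 and 33 had none in replicate 2. The pooled intervals do not cover this spread between genes.

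With a limit of 1000 sense counts, also added after the values had been seen, the 114 genes without a partner had 7.45 (6.40 to 8.61) and 4.98 (4.02 to 6.09). The interval of Mir126b then overlapped theirs in both libraries, and in replicate 2 its rate was below theirs. Most of these counts came from Mir203, an epithelial miRNA, with 147 opposite-strand counts in replicate 1 and 75 in replicate 2. Without Mir203 the other 113 genes had 1.43 (0.999 to 1.99) and 1.01 (0.606 to 1.57), below Mir126b in both libraries, with intervals that overlapped in replicate 2.

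Opposite-strand counts came from few genes. Of the 114 genes, 6 had any in replicate 1 and 5 had any in replicate 2, and 4 of these in each library had a higher rate than Mir126b. Mir203 and Mir708 were above Mir126b in both libraries, Mir708 with 17 and 11 opposite-strand counts. Mir130a (5 counts) and Mirlet7c-1 (1 count) were above it in replicate 1, and Mir150 (3 counts) and Mir324 (1 count) in replicate 2. Mir203 and Mir708, with no annotated partner, thus reached such a rate in both libraries. The other 4 rest on 1 to 5 counts in 1 library. A gene with fewer than 8763 sense counts in replicate 1, or 27115 in replicate 2, exceeds the rate of Mir126b with 1 count. Their place above Mir126b therefore depends on depth. How many reads of Mir126a could have been aligned to the other strand, given the 17 of 22 bases that the strands share, was not tested.

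**Figure D4:**
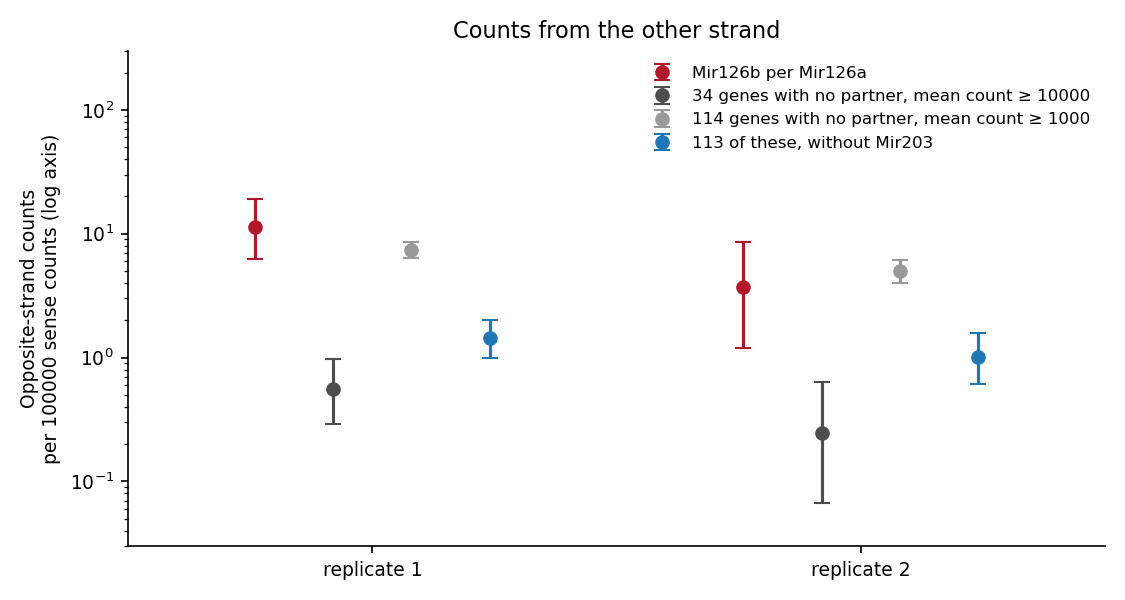
Opposite-strand counts per 100000 sense counts (log axis) in each library, with exact 95% Poisson intervals, for Mir126b over Mir126a and summed over genes with no annotated partner that averaged 10000 or more sense counts, 1000 or more, and 1000 or more without Mir203. Mir126b (11.4 and 3.69) lies above the 34 most abundant genes (0.559 and 0.246), but its intervals overlap those of the 114 genes (7.45 and 4.98).

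Between the replicates, Mir126a was 1.38-fold higher in replicate 2 (interval 1.37 to 1.39, log2 ratio 0.46). By the exact binomial test over 369 genes it had a Benjamini-Hochberg adjusted p under 0.05, as did 62.6% of all genes, but its difference did not reach 2-fold. The 2-fold rule was passed by 69 genes (18.7%), of which 32 (8.67%) were higher in replicate 2. The test asks whether these libraries differ beyond counting error, and no more. The log2 ratio of Mir126a was close to the median size over all genes tested, 0.45, and 177 of the 369 genes differed more.

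The ratio of Mir126b, replicate 2 to replicate 1, was 0.445 (interval 0.125 to 1.31), which includes 1. With no filter on low counts its adjusted p by the exact binomial test was 0.385. A difference of Mir126b between the libraries was not detectable at this depth when scaled to all counts.

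Of the 29 endothelial list genes tested between the libraries, Mir181b-1 was higher in replicate 2, Mir132 and Mir24-2 were higher in replicate 1, and 26 did not pass. Over all 369 genes tested, 69 (18.7%) passed. The median log2 ratio of these 29 genes was 0.06, against 0.07 over all genes tested. Mir126a, at 0.46, stood above the median of the list. Mir322 (log2 ratio 0.44), Mir23a (0.38), Mir17 (0.71) and Mir221 (0.70) lay on the same side, whereas Mir23b (-0.32), Mir27b (-0.87) and Mir31 (-0.17) lay on the other.

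The genes whose log2 ratio was closest to that of Mir126a, among 122 others averaging 1000 or more counts, were Mir1981 (0.47), Mir335 (0.46), Mir20a (0.45), Mir328 (0.44) and Mir15b (0.44). The measure is the difference in log2 ratio over 2 libraries, and these genes lie on 5 other chromosomes. The nearest miRNA genes with any count on the chromosome of Mir126a were Mir6996, 121 kb before it, and Gm24049, 810 kb after it. Each had 1 count in the 2 libraries together, so the members had no abundant miRNA neighbour.

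**Figure D5:**
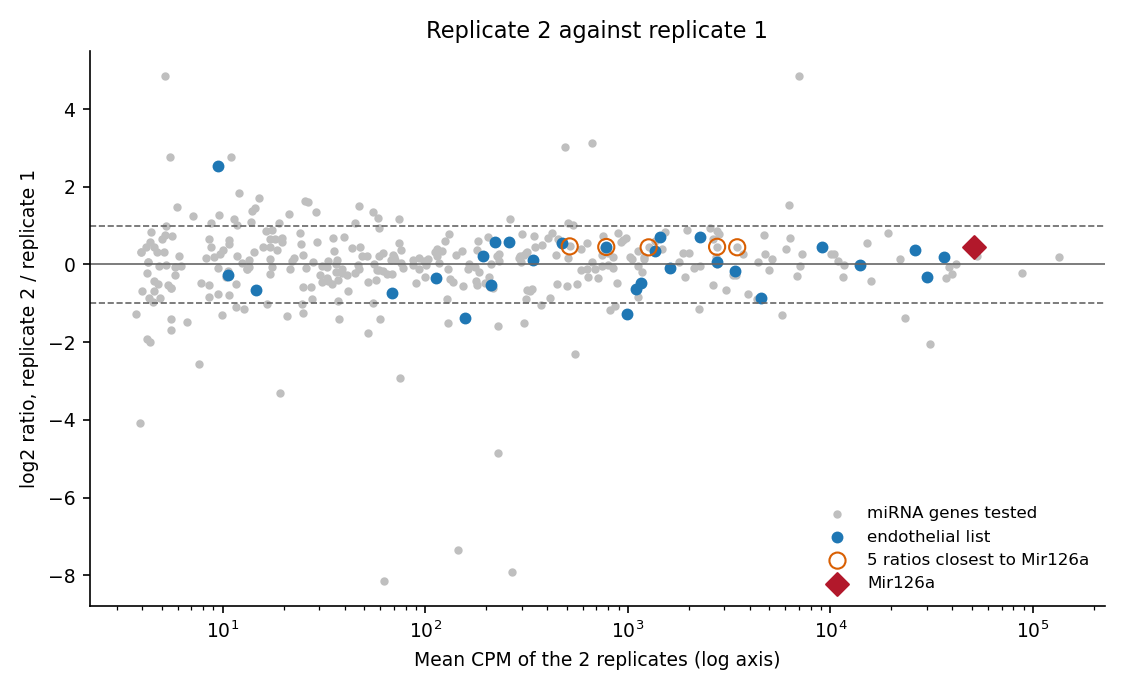
Log2 ratio of replicate 2 to replicate 1 against the mean CPM (log axis) for the miRNA genes tested, without 1 gene that had no count in a library; dashed lines mark 2-fold. Mir126a (diamond, 0.46) lies within the 2-fold lines at the right end of the plot, with the endothelial list genes (blue) on both sides of 0 and the 5 closest ratios ringed.

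Markers of other cells differed between the libraries beside Mir126a. The 3 erythroid genes, all detected, held 643 and 14488 CPM in replicates 1 and 2. Most of this came from Mir451a, at 469 and 13557 CPM. Of the 3 genes, 2 passed as higher in replicate 2, against 8.67% of the 369 genes tested. Mir486, the remaining member, was at 65.9 and 58.3 CPM (log2 ratio -0.17) and did not pass. The 4 leukocyte and platelet genes held 1331 and 1051 CPM. Mir223, known from platelets and myeloid cells, had 377 and 40 counts and passed as higher in replicate 1. The rest of the list did not pass. Mir142 was at 210 and 213 CPM, Mir155, which the endothelial list also holds, at 329 and 354 CPM, and Mir150 at 660 and 467 CPM. The 9 skeletal and heart muscle genes held 953 and 4.39 CPM, and the 3 of them tested passed as higher in replicate 1. Mir133a-1, Mir133a-2 and Mir133b had 0 counts in both libraries. Since reads aligned to several places were not counted, these 0 counts do not show absence, and the list levels hold for assigned reads only. With the erythroid, leukocyte and muscle lists left out of the totals, Mir126a was 1.39-fold higher in replicate 2, against 1.38-fold with them. Each of these lists held at most 1.45% of the gene counts in either library, so leaving them out could change the ratio only little. Which cells the reads of Mir126a came from was not tested.

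The 6 mural and smooth muscle genes, from the cells that surround vessels, held 23168 and 25516 CPM. They were led by Mir143 at 21039 and 23108 CPM, and none of the 4 tested passed. The 4 neuroendocrine genes held 42776 and 40150 CPM and the liver gene Mir122 3721 and 2358 CPM, and none of these passed. The 7 epithelial genes held 1266 and 602 CPM. Of the 6 epithelial genes tested, 4 passed as higher in replicate 1, as did 37 of all 369 genes tested. The part of other cells in the level of Mir126a was not tested.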

How the data were processed

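The deposited tables, 1 for each sample, held raw read counts per miRNA gene. The sample information deposited with them names mm10 as assembly and M21 as annotation. Aligner and counter: not given in the sources used here. The labels' size range was below 30, with no unit. Each table held counts without regard to strand and on each strand, and of the latter the column with the larger total was used. In it, 4 rows that name no gene held 69.4% and 73.7% of 9278190 and 8659511 reads (replicates 1 and 2) and were left out. All 2202 identifiers matched GENCODE M21. The members and lists were chosen with earlier results of these data known. Mir146a of the endothelial list is Mir146 in M21.

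Genes averaging 10 or more counts were compared by exact two-sided binomial tests (SciPy 1.17.1) with Benjamini-Hochberg adjustment, passing at an adjusted p under 0.05 and 2-fold. This rule was tested on simulated data. With 2 samples the smallest exact p over samples is 0.5, so none was run. Alternatives covered strand, denominator, TMM (edgeR 4.0.16) and median-of-ratios (DESeq2 1.42.0) scaling, filters, list members and single libraries. Folding used ViennaRNA 2.7.2. Genes named were the members, the 3 nearest in rank on each side, the 5 closest ratios, pairs and endothelial genes averaging 1000 or more counts, and the nearest miRNA genes. Mir155, Mir210, Mir223, other marker genes and genes with opposite-strand counts were named after their values were seen. Seeds were bases 2 to 8.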

Additional observations from a re-analysis of the deposited data

How the results depend on the processing

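Of 43 values recomputed under another setting, 28 stayed the same. That means a move below the spread between the replicates, the same side of the threshold, or a count within 1.5 times. Some of these labels were fixed in advance. Leaving out 1 of 2 replicates always moves a mean by less than the SD, and filters leave the log2 ratio of Mir126a unchanged. None reversed, but only that ratio could have been labelled so. Without regard to strand, the mean level of Mir126a was 3.08 CPM, that of Mir126b 0 CPM and the share of Mir126a in the endothelial list 0.00189%, since reads over both hairpins are then ambiguous. The ratio of Mir126a had no test in that setting, as its mean count fell below 10. Per 1000000 reads of the whole library, the levels were 14440 and 1.04, since the denominator is larger. Without the miR-23/27/24, miR-17-92 and miR-10 clusters, the share of Mir126a in the list was 69.6%. Among genes averaging 100 or more counts, 33 of 234 passed between the libraries, against 69 of 369. The opposite-strand rate of genes with no partner, 0.559 and 0.246 per 100000 for those averaging 10000 or more counts, was 7.45 and 4.98 at 1000 or more (1.43 and 1.01 without Mir203) and 8.15 and 5.25 at 10 or more (2.25 and 1.35 without Mir203), settings added after the data were seen. TMM and median-of-ratios scaling gave log2 ratios of Mir126a of 0.37 and 0.39. Leaving out a replicate gave 43203 to 59463 CPM for Mir126a, 2.19 to 4.93 CPM for Mir126b, 0.00408% to 0.00590% kept without strand, 27 to 28 genes that kept at most 1%, and list shares of 24.1% to 29.5%. No paired analysis was possible because there is 1 group. Depth limits Mir126b, whose 14 and 5 counts leave wide intervals.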
